A study of Drosophila melanogaster with 4 samples.

Results

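The Cpr genes of Drosophila melanogaster encode cuticle proteins that carry the Rebers-Riddiford consensus, a chitin-binding domain. All probe sets whose 1 annotated gene symbol is Cpr followed by a digit were taken, which leaves out the unrelated P450 reductase gene Cpr. These were 67 of the 18952 probe sets on the array, and they represent 66 genes, since Cpr47Ef has 2 probe sets. The RefSeq gene table of assembly Release 6 lists 70 genes named this way. A further 4 probe sets carry a Cpr symbol together with a second symbol and are outside the set. RNA of whole larvae, which were in the third instar and kept at 25 °C, was hybridized to 1-colour Affymetrix arrays. Control larvae carried the C564-Gal4 driver with UAS-GFP, and experimental larvae carried the same driver with UAS-Gyc76C, a receptor guanylate cyclase. All larvae therefore held the driver and a UAS transgene, and each genotype had 2 arrays, which the labels call biological replicas. The p-values rest on the spread between these arrays, pooled with that of other probe sets of like signal. The labels place the overexpression in the fat body, whereas the RNA came from the whole body, and the driver is known to be active also in haemocytes. The number, sex and hourly age of the larvae are not given in the sources used here. In such RNA, fewer cells of a type and less RNA per cell cannot be told apart.

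The insect cuticle is an extracellular layer that the epidermis secretes, and it lines the body surface, the tracheae, the foregut and the hindgut. It is built of chitin fibres held in a matrix of structural proteins, and the Cpr family is the largest group of these. A larva makes a new cuticle at each moult, and pulses of the steroid hormone ecdysone time which cuticle genes are active before and after it. Many Cpr genes lie close together in the genome, and the symbol gives the cytological band. Cpr49Aa to Cpr49Ah thus lie in band 49A on chromosome arm 2R, with 7 other protein-coding genes among them.

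More Cpr transcripts were higher than lower in Gyc76C larvae. Of the 67 probe sets, 44 had a mean signal over the 4 arrays above the level of 46.3 (the 40th percentile of all probe sets) and were tested. By limma at an adjusted p under 0.05, 20 rose (45.5%), 5 fell (11.4%) and 19 did not pass the threshold. Over all 11261 probe sets tested, 24.6% passed, 11.3% higher and 13.3% lower, so the Cpr share of rises was well above the background and the share of falls was close to it. At least 2-fold changes among the called members numbered 18 higher and 3 lower, where the background was 5.51% and 6.69%. The median log2 fold change of the 44 was 0.51, against -0.16 over all probe sets tested. It was above 0 for 29 of the 44 (65.9%), against 4500 of the 11261. The 2 Gyc76C signals exceeded both GFP signals in 26 members (59.1%, against 26.9% of all), were below both in 7 (15.9%, against 41.4% of all), and the genotypes overlapped in 11. Centring each array on its median shifts all log2 fold changes by the same amount, and the median of the members became 0.67. With each array centred on its median, 21 members rose and 4 fell, against 14.8% and 8.8% of all probe sets, and after quantile normalization 20 rose and 5 fell, against 12.7% and 10.5%.

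**Figure D1:**
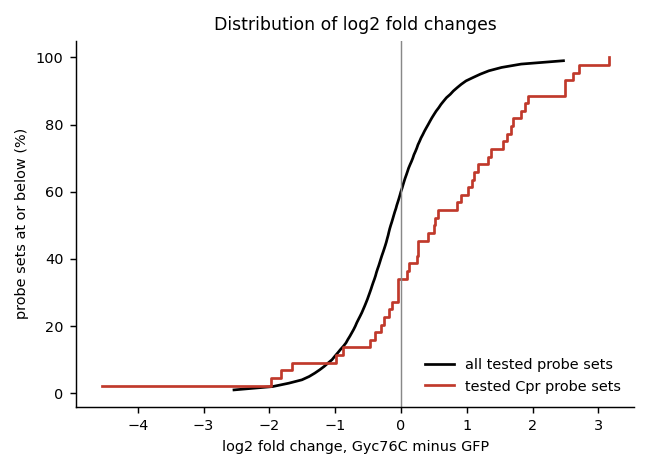
Cumulative share of probe sets (vertical axis, %) at or below each log2 fold change of Gyc76C minus GFP (horizontal axis), for the 44 tested Cpr probe sets (red) and all 11261 tested probe sets (black, drawn at its percentiles). The medians are 0.51 and -0.16, and the curves cross at the lower end, where 5 Cpr genes fell.

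Most of the changes were measured in members with a bright signal. A mean signal of 169.3 (the 60th percentile) or more was reached by 30 tested members, of which 18 rose and 4 fell, and their median log2 fold change was 1.05. Among all probe sets at that level 15.5% rose and 17.7% fell, with a median of -0.11. Of the 14 members between both levels 2 rose and 1 fell, with a median of -0.12. The corresponding background was 2.8% and 4.61%, with a median of -0.25. The 3 called dim members passed the filter only through the genotype in which they were higher. Cpr49Ae and Cpr76Bb, which rose, had GFP means of 36.0 and 36.4. Cpr49Ab, which fell, had a Gyc76C mean of 6.41. The median standard error was 0.45 in the dim members and 0.19 in the bright ones, so differences of moderate size were less detectable in the former.

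The other 23 probe sets, of 22 genes, had mean signals from 3.29 to 45.7 and were not tested in the fit reported here. All 4 arrays were under 46.3 in 15 of them. Both Gyc76C arrays were above both GFP arrays in 6, namely Cpr50Cb, Cpr62Ba, Cpr62Bb, Cpr64Ac, Cpr76Ba and Cpr78Cb, and none of the 23 showed the opposite order. Over all tested probe sets 26.9% had the first order and 41.4% the opposite one. The shares over all untested probe sets were not computed, so this count is not read as a rise. In a fit without the filter the smallest adjusted p among the 23 was 0.0632, for Cpr50Cb, followed by 0.0695 for Cpr62Bb. Cpr62Bb had signals of 15.5 and 12.5 with GFP and 69.1 and 73.7 with Gyc76C, so that only the latter reached the level of the tested probe sets. The choice of these 2 genes was made with their values in view.

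**Figure D2:**
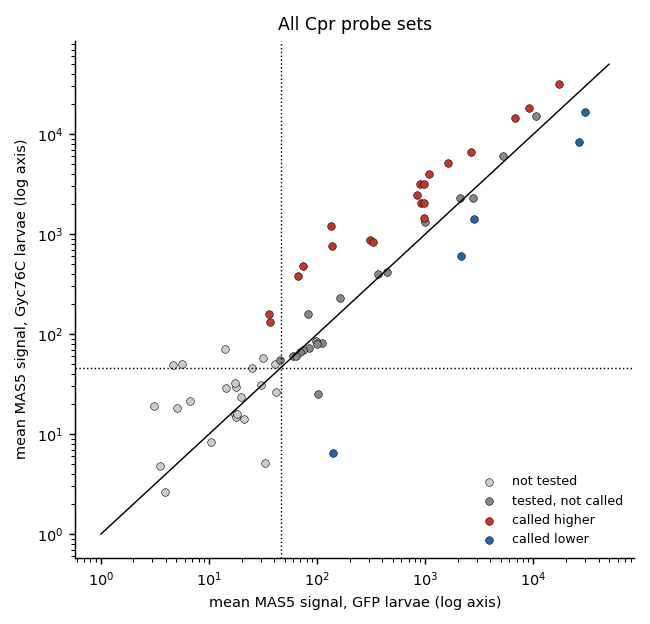
Mean MAS5 signal of each of the 67 Cpr probe sets in Gyc76C larvae (vertical, log axis) against GFP larvae (horizontal, log axis), n = 2 arrays each. The solid line marks equal signal and the dotted lines the level of 46.3. The 20 probe sets called higher lie above the line, the 5 called lower lie below it, and the 23 not tested lie at the lower left.

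Of the 32 cytological bands with a Cpr probe set, 10 hold 3 or more measured genes, with 42 genes in all. In these clusters 15 of 28 tested probe sets rose (53.6%) and 2 fell (7.14%). In the 22 bands with 1 or 2 genes 5 of 16 rose (31.25%) and 3 fell (18.75%). The background for these counts and for those of single bands below was 11.3% higher and 13.3% lower. The small counts of falls are not read as different from that share. The difference between the 2 kinds of band was not tested.

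In the 47E cluster on arm 2R all 3 tested genes rose. Cpr47Eb had signals of 848 and 820.4 with GFP and 2673 and 2214 with Gyc76C and rose 2.92-fold (1.54 ± 0.15 on the log2 scale, adjusted p = 0.00121, where the error is the SE as in all such values, and folds are ratios of geometric means). Cpr47Eg rose from 15369 and 19404 to 27798 and 35064 (0.85 ± 0.19 on the log2 scale, adjusted p = 0.0202). Cpr47Ec lay between them in size of change (1.01 ± 0.13 on the log2 scale, adjusted p = 0.00365). In each of these genes the 2 genotypes did not overlap. The Cpr47Eg call ended without GFP replicate 1 (log2 fold change 0.69, adjusted p = 0.0515) and when the variance prior ignored the signal level (adjusted p = 0.0778). The other 4 genes of the cluster, Cpr47Ea, Cpr47Ed, Cpr47Ee and Cpr47Ef, were too dim to be tested, so the cluster held both bright, rising genes and genes near the lower end of the scale.

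The 49A cluster on arm 2R moved in both directions. Of 7 tested genes 4 rose, 2 fell and Cpr49Ah did not pass, and Cpr49Aa was too dim to be tested. Cpr49Ad had signals of 113 and 162 with GFP and 735 and 782 with Gyc76C and rose 5.62-fold (2.49 ± 0.22 on the log2 scale, adjusted p = 0.000983). Its direct neighbour Cpr49Ac had 27665 and 32218 with GFP and 13182 and 19994 with Gyc76C and fell 1.84-fold (-0.88 ± 0.22 on the log2 scale, adjusted p = 0.0315). The genotypes did not overlap in either gene, and their log2 fold changes had opposite signs. Cpr49Af and Cpr49Ag rose 2.12-fold and 2.26-fold. Their mean signals (± SD, n = 2 each) were 6806 ± 1141 in GFP and 14382 ± 1482 in Gyc76C larvae for Cpr49Af, and 906 ± 219 in GFP and 2025 ± 234 in Gyc76C larvae for Cpr49Ag. Cpr49Ae was dim in control larvae at 58.1 and 13.9 and reached 144 and 177 in Gyc76C larvae, at least 3.08-fold higher (adjusted p = 0.0425), where signals under 46.3 were raised to that level for the fold. Cpr49Ab had 101 and 178 with GFP and 9.31 and 3.51 with Gyc76C, at least 2.89-fold lower (-4.55 ± 0.95 on the log2 scale, adjusted p = 0.0172). Both Gyc76C signals were far under 46.3, and with dim signals raised to that level the log2 fold change was -1.53. The adjusted p of Cpr49Ab was 0.0815 without GFP replicate 1 and 0.216 without GFP replicate 2. That of Cpr49Ac was 0.0679 without GFP replicate 2, 0.0793 without Gyc76C replicate 1, where the log2 fold change was -0.58, and 0.0557 with centred arrays. The Cpr49Ae call ended without Gyc76C replicate 1 (adjusted p = 0.0869) and without Gyc76C replicate 2 (0.0972). The calls of Cpr49Ab and Cpr49Ac thus depended on the arrays included, and neither was kept without GFP replicate 2. Those of Cpr49Ac and Cpr49Ae also ended without the filter and when the variance prior ignored the signal level. In the latter fit the Cpr49Ag call ended as well.

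On arm 3L the clusters differed in how many genes were detectable. In band 62B, Cpr62Bc rose 3.55-fold, from 821 and 979.6 to 2917 and 3471 (1.83 ± 0.16 on the log2 scale, adjusted p = 0.000905), and its 2 neighbours Cpr62Ba and Cpr62Bb were among the genes too dim to be tested. In band 64A, Cpr64Ad had 89.1 and 43.5 with GFP and 397 and 366 with Gyc76C and was at least 5.93-fold higher in geometric means, with the GFP signal under 46.3 raised to that level (2.61 ± 0.36 on the log2 scale, adjusted p = 0.0045). Cpr64Aa and Cpr64Ab, which lie next to each other in the same run of genes, had log2 fold changes of -0.40 and -0.26 with standard errors of 0.37 and 0.41 and did not pass. The rise in band 64A was therefore measured in 1 of 3 tested genes.

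In band 65A the Cpr genes are interleaved with Lcp65A genes, which encode larval cuticle proteins of the same kind, and with Acp65Aa, an adult cuticle protein gene. Cpr65Au had 423 and 192 with GFP and 828 and 924 with Gyc76C and rose 3.07-fold (1.62 ± 0.35 on the log2 scale, adjusted p = 0.019; adjusted p = 0.0791 when the variance prior ignored the signal level). Cpr65Aw had 3928 and 1631 with GFP and 2405 and 2195 with Gyc76C and did not pass (log2 fold change -0.14, SE 0.37, adjusted p = 0.81). Cpr65Av was similar, with 3039 and 1193 with GFP and 2191 and 2376 with Gyc76C (log2 fold change 0.26, adjusted p = 0.653). In Cpr65Aw and Cpr65Av the Gyc76C signals lay between the 2 GFP signals. Without GFP replicate 1, 3 genes of the band rose, with log2 fold changes of 0.94 for Cpr65Av and 0.49 for Cpr65Aw. Without GFP replicate 2 Cpr65Aw was called lower at -0.77. Among the interleaved genes Lcp65Aa rose 2.51-fold, Lcp65Ac 2.72-fold, Lcp65Ae 3.07-fold and Lcp65Af 14-fold. Lcp65Ad, with 194 and 126 against 102 and 97.5, did not pass (log2 fold change -0.65, adjusted p = 0.162), nor did Acp65Aa (log2 fold change 0.63, adjusted p = 0.307). Lcp65Ag3, which lies next to Cpr65Au outside the run, rose 4.64-fold. A probe set annotated to both Cpr65Ax1 and Cpr65Ax2 had 18831 and 24489.9 against 27185 and 33702 and did not pass (adjusted p = 0.104).

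In band 67F the adjacent genes Cpr67Fa1 and Cpr67Fa2 rose by nearly the same amount. Cpr67Fa1 had 813 and 1149 with GFP and 3266 and 3043 with Gyc76C and rose 3.26-fold (1.71 ± 0.19 on the log2 scale, adjusted p = 0.00199). Cpr67Fa2 had 1482 and 1775 with GFP and 5015 and 5325 with Gyc76C and rose 3.19-fold (1.67 ± 0.14 on the log2 scale, adjusted p = 0.000843). A probe set annotated to both genes had 3191 and 4665 against 11279.5 and 11642 and rose 2.97-fold (adjusted p = 0.00299). Cross-hybridization between these copies was not tested, so the 3 probe sets are not taken as independent measurements. The third gene of the band, Cpr67Fb, lay near the lower level with 53.3 and 65.4 against 40.3 and 81.6 and did not pass (adjusted p = 0.962).

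In band 78C both tested genes rose. Cpr78Cc rose 2.5-fold, from 2906 and 2384 to 7131 and 6092 (1.32 ± 0.16 on the log2 scale, adjusted p = 0.00257). Cpr78Ca rose 1.47-fold, from 1068 and 889 to 1457 and 1412 (adjusted p = 0.0362), but its call ended without Gyc76C replicate 1 (adjusted p = 0.225) and without Gyc76C replicate 2 (0.15), which left 1 gene of the band called. Between them lies Edg78E, an ecdysone-dependent gene for a pupal cuticle protein, with 67.4 and 63.3 against 59.8 and 49.8 (log2 fold change -0.26, adjusted p = 0.689). In band 76B, Cpr76Bb had 46.9 and 25.9 with GFP and 125 and 141 with Gyc76C and was at least 2.85-fold higher (1.93 ± 0.45 on the log2 scale, adjusted p = 0.0248), while Cpr76Bc and Cpr76Bd did not pass (log2 fold changes 0.26 and -0.48). The Cpr76Bb call ended without Gyc76C replicate 1 (adjusted p = 0.0771) and without Gyc76C replicate 2 (0.0796).

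Bands 65E and 72E showed no call. Cpr65Ea had 101 and 94.4 with GFP and 93.1 and 79.2 with Gyc76C (log2 fold change -0.19, SE 0.31, adjusted p = 0.695), and Cpr65Ec had a log2 fold change of -0.05 with an SE of 0.45. Cpr72Eb had 78.7 and 60.2 with GFP and 71 and 62.4 with Gyc76C (log2 fold change -0.05, SE 0.40, adjusted p = 0.942). These 3 genes were dim, with signals over the 4 arrays averaging 92.0, 71.8 and 68.0.

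**Figure D3:**
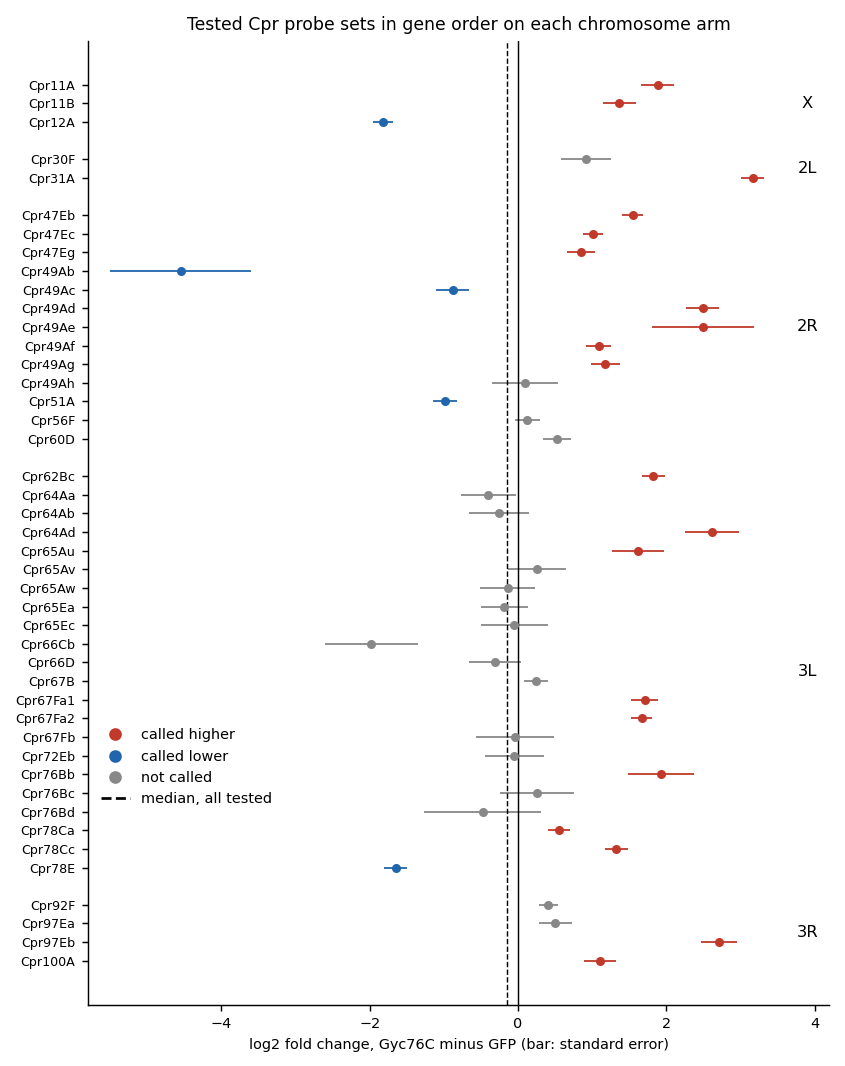
Log2 fold change of Gyc76C minus GFP (horizontal axis) with its standard error (bar) for the 44 tested Cpr probe sets, in gene order on each chromosome arm from X at the top to 3R at the bottom. Red points were called higher, blue lower and grey not called, and the dashed line marks the median of all probe sets tested at -0.16. Calls in both directions sit side by side in band 49A, where the call of Cpr49Ac depended on the arrays included.

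Cpr genes that stand alone or in pairs gave the largest rise and 3 of the 5 falls. Cpr31A on arm 2L had signals of 142 and 126 with GFP and 1179.7 and 1217 with Gyc76C, an 8.96-fold rise (3.16 ± 0.16 on the log2 scale, adjusted p = 0.000129). The replicates of each genotype differed by far less than the genotypes, and this was the highest log2 fold change of the tested family members. Cpr97Eb on arm 3R had 84.5 and 64.2 with GFP and 439.6 and 529 with Gyc76C and rose 6.55-fold (2.71 ± 0.24 on the log2 scale, adjusted p = 0.00102), while its neighbour Cpr97Ea did not pass (log2 fold change 0.50, adjusted p = 0.146). On the X chromosome Cpr11A rose 3.69-fold, from 1252 and 915 to 4664 and 3339.7 (1.88 ± 0.22 on the log2 scale, adjusted p = 0.0024). Cpr11B, also on X, and Cpr100A on 3R rose 2.58-fold and 2.15-fold, to 818 and 849 and to 2084 and 2033 respectively. The Cpr100A call ended without Gyc76C replicate 1 (adjusted p = 0.0544).

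The falls among these single genes were measured at bright signals. Cpr78E on arm 3L had 26890.3 and 25390.2 with GFP and 9132 and 7578 with Gyc76C, 3.14-fold lower (-1.65 ± 0.15 on the log2 scale, adjusted p = 0.00113). Cpr12A on X had 2034 and 2217 with GFP and 582 and 621 with Gyc76C, 3.53-fold lower (-1.82 ± 0.13 on the log2 scale, adjusted p = 0.000513). Cpr51A on 2R had 3169 and 2465 with GFP and 1499 and 1323 with Gyc76C, 1.98-fold lower (-0.99 ± 0.16 on the log2 scale, adjusted p = 0.00821; adjusted p = 0.0553 when the variance prior ignored the signal level). In these genes both Gyc76C arrays lay below both GFP arrays, and the Cpr78E and Cpr12A calls were kept in all 13 alternatives tried. Cpr66Cb had 65.6 and 138 against 32 and 18.2 and did not pass (log2 fold change -1.98, SE 0.63, adjusted p = 0.0624), although its genotypes did not overlap. Cpr30F, Cpr60D, Cpr67B and Cpr92F, with log2 fold changes of 0.92, 0.52, 0.24 and 0.41, had both Gyc76C arrays above both GFP arrays but did not pass either, and Cpr56F and Cpr66D overlapped. The choice of these 7 genes and of Cpr11B was made with their values in view.

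**Figure D4:**
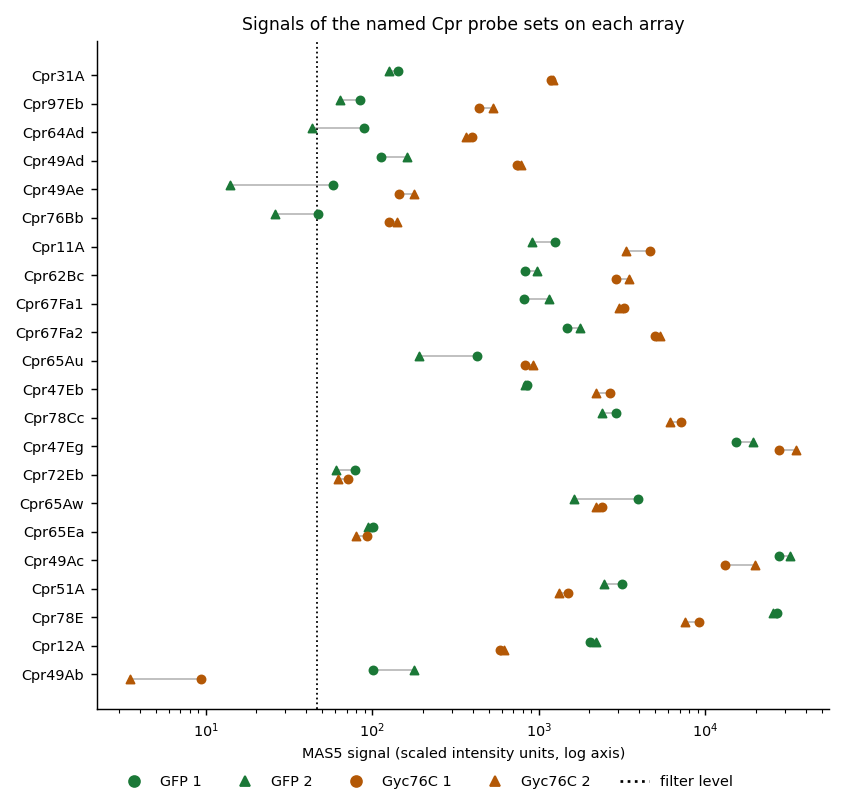
MAS5 signal (horizontal, log axis) of 22 named Cpr probe sets on each array, ordered by log2 fold change, with GFP in green and Gyc76C in brown, circles for replicate 1 and triangles for replicate 2, and the level of 46.3 dotted. Cpr31A at the top reaches 1179.7 and 1217 in Gyc76C larvae, Cpr49Ab at the bottom falls below the dotted line, and Cpr65Aw has both Gyc76C signals between its GFP signals.

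Neighbouring Cpr genes did not always share a call. There were 25 pairs of measured Cpr genes with no other protein-coding gene between them in the RefSeq order, and both genes were tested in 10. Both rose in 3 of these pairs, 1 was called and the other not in 3, neither was called in 3, and the calls were opposite in 1, the pair of Cpr49Ac and Cpr49Ad. The Cpr49Ac call depended on the arrays included. Among the 3 pairs that rose is that of Cpr67Fa1 and Cpr67Fa2, whose probe sets are not taken as independent. A pair shares a gene with the next pair of its cluster, so these counts are a description.

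The 2 control arrays differed from each other in some Cpr genes. The GFP signals differed by more than 2-fold in 7 of the 44 tested members (15.9%), against 5.47% of all probe sets tested, and the Gyc76C signals did so in 3 (6.82%, against 6.59%). In 6 of the 7 GFP replicate 1 was the higher one. The 7 were Cpr49Ae, Cpr49Ah, Cpr64Ad, Cpr65Au, Cpr65Av, Cpr65Aw and, with GFP replicate 2 higher, Cpr66Cb. Cpr49Ah had 659 and 230.1 with GFP and 412 and 416 with Gyc76C (log2 fold change 0.09, SE 0.44, adjusted p = 0.903). Leaving out GFP replicate 1 gave a log2 fold change of 0.85 for that gene, and leaving out GFP replicate 2 gave -0.67. Of 9 tested tanning genes 3 differed by more than 2-fold between these arrays. Of these ebony (e), which encodes an enzyme that joins dopamine to beta-alanine, had 103 and 5939.7 in GFP larvae, and Ddc, the dopa decarboxylase gene, had 2686 and 8434, with GFP replicate 2 higher. The third, yellow-f2, had 111 and 54.7, with GFP replicate 1 higher. In other gene groups described below, the GFP arrays differed this much in 5 of 14 Tweedle genes and 4 of 10 steroid-hormone factors. They did so in 2 of 12 genes of the Lcp group and 1 of 7 epidermal and tracheal genes. For chitin synthesis and for chitinases with Idgf genes the count was 0 of 15 each. The part of this difference in the Cpr results was not tested, and the counts of members that rose without GFP replicate 1 and without GFP replicate 2 were 25 and 20.

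Other groups of cuticle protein genes also gave many rises. Of 14 tested Tweedle genes, which encode a second family of structural cuticle proteins, 9 rose and 5 did not pass, with a median log2 fold change of 1.69. Among those that rose TwdlK, TwdlL, TwdlM, TwdlN and TwdlO each had 1 GFP array under 46.3. The GFP mean of TwdlK was 43.3, so it passed the filter only through its Gyc76C signals. With the filter at the 60th percentile 6 Tweedle genes rose. TwdlO had 12.8 and 818 with GFP and 12937 and 16827 with Gyc76C, with 1 of the 2 GFP arrays under 46.3 and the other far above it. With the dim signal raised to that level it was at least 75.8-fold higher in geometric means (adjusted p = 0.0239). TwdlP rose 16.7-fold. In a group of cuticle genes with Lcp, Pcp, Ccp, Acp or Edg names 5 of 12 rose and 7 did not pass (median 0.98), and the 5 were Lcp65Aa, Lcp65Ac, Lcp65Ae, Lcp65Ag3 and Lcp65Af of band 65A. The Lcp65A genes encode proteins of the same kind as the Cpr genes, so these 5 rises are not those of a separate family. Pcp, a pupal cuticle protein gene, had 8206 and 15459 against 3820.1 and 7242 and did not pass (adjusted p = 0.0773), and 1 gene of the group fell without GFP replicate 1 or without Gyc76C replicate 2. Each of these counts is read against the same background of 11.3% higher and 13.3% lower.

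Calls were also made among genes that make, remodel or harden chitin and cuticle. The background for these and for all groups and markers below was again 11.3% higher and 13.3% lower. No set test was run, and small counts among so few genes are not read as different from that share. Of 15 genes of chitin synthesis and assembly 4 rose and 11 did not pass, with a median of 0.42. A second, dimmer probe set of Gnpnat, which acts in the synthesis of the chitin precursor, was called higher at a log2 fold change of 0.47 (adjusted p = 0.0445), where the brightest one used for the count was not. The 3 largest called were Cda4 and verm, which encode chitin deacetylases, at log2 fold changes of 0.85 and 0.76, and exp at 0.60, while kkv, the chitin synthase gene of the epidermis, rose by 0.51 on the log2 scale (adjusted p = 0.044). Leaving out 1 array changed the number that rose to 10 (GFP replicate 1), 2 (GFP replicate 2 or Gyc76C replicate 2) and 0 (Gyc76C replicate 1, where 4 were higher at an unadjusted limma p under 0.05). Of 15 chitinase and Idgf genes 6 rose and 1 fell (median 0.23), led on the log2 scale by Cht9 at 2.29, Cht4 at 1.34 and Cht6 at 1.21, and Cht10 fell 2.61-fold, from 2708 and 3321 to 1137 and 1165. Without either Gyc76C array 3 rose. The number that fell was 4 when GFP replicate 1 was left out, and 2 when GFP replicate 2 or Gyc76C replicate 2 was.

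Tanning genes, whose products crosslink and colour the cuticle, split by gene. Of 9 tested 4 rose and 3 fell, with a median of 0.39. On the log2 scale those that fell were yellow-f at -2.41, Pu, which encodes the enzyme that starts pterin cofactor synthesis, at -2.12, and Ddc at -1.87. Straw (stw), the laccase gene of cuticle tanning, rose by 0.88 on that scale. When Gyc76C replicate 1 was left out 1 tanning gene rose, and when Gyc76C replicate 2 was left out 2 did.

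The called transcription factors through which ecdysone and juvenile hormone act on the moult were all lower. Of 10 tested 4 fell and 6 did not pass, with a median of -1.10, where 13.3% of all probe sets tested fell. Both Gyc76C arrays were below both GFP arrays in 5 of the 10 and above them in 2. The latter were Hr38 and ftz-f1, with log2 fold changes of 1.82 and 0.98, which did not pass. The ecdysone receptor gene EcR had 458 and 409 with GFP and 127 and 137 with Gyc76C, 3.28-fold lower (-1.71 ± 0.19 on the log2 scale, adjusted p = 0.0021). The early gene br and the nuclear receptor gene Hr39 fell 2.71-fold and 2.58-fold, and 2 genes of the group fell without Gyc76C replicate 1. The juvenile hormone response gene Kr-h1 fell 1.76-fold. Regulators and surface proteins of epidermis and trachea numbered 7 tested, of which neo and pio fell (log2 fold changes -1.49 and -0.48) and 5 did not pass, with a median of -0.45. Of the latter grh, an epidermal transcription factor gene, had 1205 and 905 against 898 and 922 (log2 fold change -0.20, adjusted p = 0.429), and 1 gene of the group fell without GFP replicate 2 or Gyc76C replicate 2. Without Gyc76C replicate 1 or with centred arrays 0 fell by limma, with 1 and 2 lower at an unadjusted p under 0.05.

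**Figure D5:**
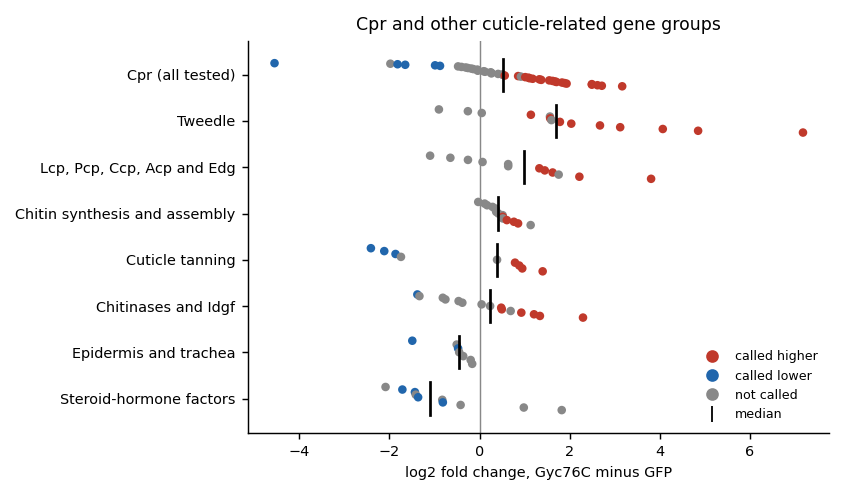
Log2 fold change of Gyc76C minus GFP (horizontal axis) for each tested member of the Cpr family and of 7 other gene groups, one point per probe set for Cpr and per gene otherwise, with the group median as a black bar. Red points were called higher, blue lower and grey not called, and the medians run from 1.69 for Tweedle genes to -1.10 for steroid-hormone transcription factors.

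Markers of other tissues of the whole larva also differed between the genotypes. The overexpressed gene was measured by a probe set annotated to Gyc76C and CG42637 together, with 1047 and 928 with GFP and 16049.5 and 20993 with Gyc76C (18.6-fold, adjusted p = 5.79e-05). Another 2 probe sets with the same annotation were dim and had the opposite order, with 91.9 and 64.9 against 9.42 and 30.6 in a tested one that did not pass (adjusted p = 0.0951) and 17 and 14.6 against 2.43 and 4.69 in one below the filter. Of 10 salivary gland markers 9 fell, and their summed signal was 191840 to 207535 in GFP and 19468 to 22446 in Gyc76C larvae. The 4 fat body markers summed to 132734 to 135658 and 88849 to 105332, with 2 of 4 lower (1 when any array was left out), the 5 muscle markers to 51044 to 65409 and 77155 to 86305, with 2 of 5 higher, and the 4 midgut markers to 43615 to 49986 and 53011 to 60914, with 2 of 4 higher. Of 4 haemocyte markers srp fell, a call that ended without GFP replicate 2 or without either Gyc76C array, with sums of 2697 to 2773 and 2490 to 2630, and of 2 tracheal markers Gasp was tested and did not pass, with sums of 6073 to 8201 and 9961 to 10346. None of these markers was at 0 on any array. The part of these shifts in the Cpr result was not tested. Replicate arrays correlated at r = 0.966 (GFP) and r = 0.968 (Gyc76C) over the tested probe sets, and arrays of different genotype at 0.88 to 0.91. With 2 arrays per genotype precision is limited, and the standard errors of the 25 called Cpr log2 fold changes ran from 0.13 to 0.95.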

How the data were processed

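The deposited table holds 1 linear intensity per probe set and array, computed with MAS5 (per the submitters' processing notes, version and build not given in the sources used here). Undetected probe sets also receive a MAS5 signal, and no detection call entered the tests. No coordinates are printed. Gene order was read from the RefSeq table of assembly Release 6. Of the 18952 probe sets 183 were controls, 13646 carry 1 platform gene symbol, 402 several and 4721 none. Signals of all but the controls were log2-transformed with no pseudocount, and the 11261 with a mean signal at or above the 40th percentile (46.3) were kept. Genotypes were compared with limma 3.58.1 in R 4.3.3 (lmFit, eBayes with a mean trend, 2 residual and on average 4.64 prior degrees of freedom). The variance used for a probe set thus drew more on probe sets of like signal than on its own arrays. P-values are two-sided and were adjusted by the Benjamini-Hochberg method over all probe sets tested, with calls at 0.05. The fit was also run on simulated data, where only the mean size of the changes put in was checked. The spreads were shuffled across probe sets there, so the run gives no measure of the error rate of the calls. In the other gene groups the brightest probe set stood for a gene, and other probe sets differed in call for Cht6, Hr39, br and Gnpnat and in sign for Idgf3, which did not pass with either. Folds are ratios of geometric means. Where an array was under 46.3, its signal was raised to that level and the fold written as at least so much.

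The members, gene groups and markers were chosen with earlier results of these data known. Named Cpr genes are up to 12 called higher and 8 called lower with the largest changes, the brightest and the most changed tested member of each band with 3 or more genes, and genes whose probe sets disagree. Up to 3 called members of each other group are named, and genes outside the rule were chosen after their values were seen. These are Cpr47Ec, Cpr49Af, Cpr49Ag, Cpr49Ah, Cpr64Aa, Cpr64Ab, Cpr65Av, Cpr65Ec, Cpr67Fb, Cpr76Bc, Cpr76Bd, Cpr78Ca, Cpr97Ea and Cpr100A, and e, stw, yellow-f2, Cht6, kkv, Gnpnat, Idgf3, Lcp65Ad, Kr-h1, Hr38, ftz-f1, grh, Pcp, Edg78E, Acp65Aa, Lcp65Aa and Lcp65Ac, besides those said to be so in the report. Protein and promoter sequences were not analysed here.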

Additional observations from a re-analysis of the deposited data

How the results depend on the processing

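The 13 alternatives left out each array, added the replicate number as a block, centred arrays on their median, quantile-normalized, dropped the filter or set it at the 60th percentile, let the variance prior ignore the signal level (no trend), used a robust variance, raised dim signals to 46.3, or used log2(signal + 32). Of the 25 called Cpr members 15 kept their call in all alternatives, 13 higher and 2 lower, and 10 lost it in at least 1. With all arrays kept, the count that rose ranged from 14 to 21 and the count that fell from 3 to 5. Both were lowest without the trend. Calls over all probe sets also dropped in that fit, to 612 higher and 629 lower from 1271 and 1500. The count of 21 came with centred arrays, where 1663 of all probe sets rose. These changes in count are therefore not read as particular to the Cpr genes. The median log2 fold change ranged from 0.41 to 0.73 without 1 array, and it was 1.05 with the 60th percentile filter, which by construction leaves the 30 bright members.

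Without 1 array Cpr49Ah ranged from -0.67 to 0.85 and Cpr65Aw from -0.77 to 0.49, with calls in both directions. Ranges of calls without 1 array were, for bands, 1 to 2 lower in 49A, 1 to 3 higher and 0 to 1 lower in 65A, 0 to 1 higher in 76B and 1 to 2 higher in 78C. For the other groups they were 0 to 1 lower for Lcp, Pcp, Ccp, Acp and Edg genes, 0 to 10 higher for chitin synthesis, 3 to 6 higher and 1 to 4 lower for chitinases and Idgf genes, 1 to 4 higher for tanning, 0 to 1 higher and 2 to 5 lower for steroid-hormone factors, and 0 to 3 lower for epidermis and trachea. Where a count fell to 0 by limma, 1 to 4 members passed an unadjusted p under 0.05.

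With centred arrays 1 gene of 49A fell, 9 chitin synthesis genes rose and 0 epidermal genes fell (2 at an unadjusted limma p under 0.05). Without the filter these numbers were 1, 2 and 0 (3 unadjusted). Without the trend 2 genes of 49A rose and 1 fell, 0 of 65A (1 unadjusted), 1 of 78C, 0 of chitin synthesis (5 unadjusted), 3 chitinase and Idgf genes and 1 tanning gene rose, and 0 epidermal genes fell (3 unadjusted). With the 60th percentile filter 1 gene of 49A fell and 0 of 76B rose, as no member of 76B was tested. Epidermal genes that fell numbered 1 after quantile normalization, with a robust variance and with dim signals raised. The cause of these changes was otherwise not tested. Over all probe sets 1271 rose and 1500 fell, against 575 and 629 without Gyc76C replicate 1, and 752 rose without Gyc76C replicate 2.

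With the replicate number as a block 20 Cpr members rose and 5 fell as before, 4 chitinase and Idgf genes and 1 gene of the Lcp group fell. The numbers do not pair the arrays by the labels, and deviations of same-numbered arrays from their group means correlated at 0.0445 across probe sets. MAS5 signals near 46.3 carry wide errors, which limits what can be said of the 23 Cpr probe sets below it.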
